A study of Mus musculus with 2 samples.

Results

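Vascular smooth muscle cells and pericytes from mouse femurs were represented by 82 of the 8553 barcodes with 200 or more detected genes. They were chosen by expression and not by clustering. A barcode was a member when Acta2 took 0.1% or more of its unique molecular identifiers (UMIs, each counting 1 captured RNA molecule), when at least 2 of the 4 genes Myh11, Rgs5, Notch3 and Tagln had a UMI, and when Postn stayed under 0.2%, Col2a1 under 0.5% and the haemoglobin genes under 10% of UMIs. The untreated library held 38 members among 4633 barcodes (0.820%, exact binomial 95% interval 0.581 to 1.12%). The calcitriol library held 44 among 3920 (1.12%, 0.817 to 1.5%), so the intervals of the 2 shares overlapped. Barcodes with 10% or more haemoglobin, which cannot be members, made up 2394 of the 4633 and 462 of the 3920. The order of the 2 shares depends on them.

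The study looked for the osteocytes that make FGF23 after calcitriol, the active form of vitamin D, and the vessel wall was collected with them. Both libraries came from the femurs of 7-week-old male C57BL/6J mice, pooled over 6 mice into 1 sample per group. Mice of the calcitriol group received 2.5 μg/kg calcitriol intravenously on each of 3 days and were killed 24 h later, whereas control mice were left untreated and had no injection. In both groups the epiphyses and the flushed marrow were discarded, the bone was digested with collagenase D and EGTA after the first supernatants had been thrown away, and CD45-positive blood cells were depleted on magnetic beads. With 1 library per group there was no replicate, no p-value was computed, and every interval covers counting error only. Calcitriol, injection and library cannot be told apart. In sums over members, fewer cells of a kind and less RNA per cell likewise cannot be told apart.

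Smooth muscle cells encircle arteries and contract when calcium activates myosin light chain kinase, which lets myosin pull on smooth muscle actin. Pericytes sit on capillaries and venules inside the endothelial basement membrane, are recruited by PDGF-B acting on PDGFRβ, and carry less contractile protein. Both depend on Notch3, and both answer vasoactive hormones, nitric oxide and inflammatory signals. The transcription of many contractile genes is driven by serum response factor with its partner myocardin at a short DNA element, the CArG box.

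That element was looked for in the 300 bases around the start of each gene (250 before and 50 after it) in RefSeq promoter sequences of GRCm38.p6. A CArG box was read as CC, then 6 bases that are each A or T, then GG. This pattern is its own reverse complement, so that both strands were read at once. It occurred in 535 of 32851 promoters (1.63%). Of the 28 genes of a contractile list, 22 had a promoter entry, and 2 of their 26 promoters held a box. These were those of Myl9, the regulatory light chain that the kinase phosphorylates, and of Myl6, the essential light chain. The stretches of 90 bases around the boxes are shown because the pair are among the contractile genes whose levels are compared between the libraries, and capitals mark the CArG box. The Myl9 stretch lies at chr2:156775263-156775352 on the plus strand and the Myl6 stretch at chr10:128493010-128493099 on the minus strand.
Myl9: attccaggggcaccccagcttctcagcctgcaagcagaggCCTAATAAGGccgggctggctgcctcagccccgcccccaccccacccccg
Myl6: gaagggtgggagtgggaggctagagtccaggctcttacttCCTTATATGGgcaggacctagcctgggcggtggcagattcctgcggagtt
The Myl9 box began 161 bases before the annotated start and the Myl6 box 50 bases before one of its 2 starts. The promoters of Acta2, Cnn1, Lmod1, Mylk and Tpm2 did not hold these letters in this window. A match is a description of the sequence and binding was not measured.

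The members were of usual depth for these libraries. The untreated library summed to 70266983 UMIs over 6076 barcodes and the calcitriol library to 60392557 over 4562. Members held 448349 and 511531 of these. A member had a median of 10587 UMIs in the untreated library (502 to 27582) and 10142 in the calcitriol library (579 to 68760), with medians of 3047 and 2908.5 detected genes. Mitochondrial genes took a median of 5.46% and 5.72% of UMIs. No member's barcode was among the 8 that occurred in both libraries. Haemoglobin took 41.2% of all UMIs in the untreated library and 10.6% in the calcitriol library, and a median of 0.129% and 0.0379% within members.

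The limit on Acta2 did most of the selecting. It alone kept out 34 untreated and 78 calcitriol barcodes that met every other condition, whereas the other conditions alone kept out at most 3 each. The untreated members nearest to the limit had Acta2 at 0.108%, 0.116% and 0.124% of UMIs and the nearest barcodes outside had 0.0993%, 0.0950% and 0.0824%. In the calcitriol library the nearest members had 0.110%, 0.110% and 0.117%, and the nearest outside had 0.0900%, 0.0800% and 0.0794%. The limit therefore fell within a continuous range of Acta2.

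Each of the 5 genes of the rule was found in most members, which the rule favors. Acta2 (ENSMUSG00000035783, chr19:34241090-34255590, minus strand), the smooth muscle actin, ranged over single untreated members from 1079 to 32298 CPM (UMIs of the gene scaled to a fixed total per cell, or per sum of cells) with a median of 9108, and over calcitriol members from 1095 to 21202 with a median of 4743. Myh11 (ENSMUSG00000018830, chr16:14194535-14291372, minus strand), the smooth muscle myosin heavy chain, had medians of 1812 and 1846 CPM and was detected in 94.7% and 97.7% of members. Rgs5 (ENSMUSG00000026678, chr1:169655501-169695813, plus strand), a brake on vasoconstrictor receptors and a pericyte marker, had medians of 1155 and 1751 CPM and was detected in 68.4% and 77.3%. Notch3 was detected in 89.5% and 84.1%. In haemoglobin-rich barcodes, which should lack these genes and had median depths of 10566 and 10279.5 UMIs, a UMI was seen in 0.167% and 0.216% for Myh11, in 0.501% and 1.30% for Rgs5 and in 0.334% and 0.433% for Notch3. The rule required such UMIs, so these shares in members are a description.

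Genes outside the rule described the same kind of cell. Among the 20 genes with the largest ratio of members to all other barcodes, 15 were not part of the rule, and these values are a description because the members were picked by expression. Myl9 stood at 3580 CPM in members against 15.9 in all others. Tpm2, a tropomyosin of the thin filament, stood at 4843 against 63.3, Lmod1, a nucleator of actin filaments, at 707 against 1.05, and Cnn1, the actin-binding calponin, at 473 against 0.706. The list went on with smooth muscle actin Actg2, the kinase Mylk, the phosphatase inhibitor Ppp1r14a, the filament proteins Synpo2, Flna and Csrp1, the nitric oxide receptor subunit Gucy1a1, the amine oxidase Aoc3 and the neuropeptide Y receptor Npy1r. Cnn1 had no UMI in the endothelial barcodes or in the fibroblast barcodes of either library, and Rgs5 reached 621 and 714 CPM in the endothelial ones.

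Defining genes of some other cell types were absent. Of 10 leukocyte markers, 8 in untreated and 9 in calcitriol members had no UMI, Ptprc, which encodes CD45, among them. Of 10 skeletal muscle markers 9 and 8 had none, Ckm, Myod1 and Pax7 among them. Of 10 osteoblast and osteocyte markers 5 and 4 had none, Mepe, Runx2 and Bglap2 in both libraries, but Postn had 139 and 163 UMIs, Ibsp 22 and 6, Alpl 9 and 13 and Sp7 1 and 3. Endothelial genes were present. At least 2 of 5 endothelial markers (Pecam1, Cdh5, Eng, Emcn and Kdr) were detected in 8 untreated and 6 calcitriol members, whose median depths were 11843.5 and 22188 UMIs. The caller Scrublet marked 0 and 4 barcodes in whole libraries as doublets, under 0.5%, so its calls were not used.

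Members differed in whether they held Rgs5, a gene of the rule. Myh11 and Rgs5 were detected together in 24 untreated and 33 calcitriol members, Myh11 without Rgs5 in 12 and 10, and Rgs5 without Myh11 in 2 and 1. Depth was alike on both sides. Members with Rgs5 had median depths of 10119 and 10022 UMIs, and those without it 11150.5 and 10327. Few lay near the line, since 2 untreated and 3 calcitriol members had 1 or 2 UMIs of Rgs5. This division was made along a range of Rgs5, and whether its sides are different cell types was not tested. The counts below describe it.

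**Figure D1:**
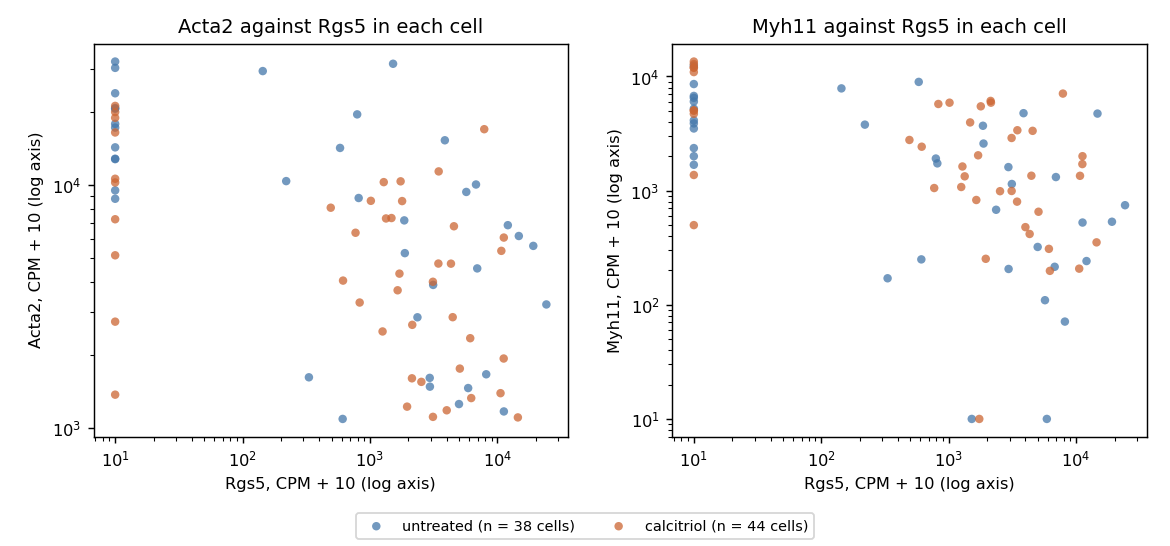
Each point is 1 of the 38 untreated or 44 calcitriol members. The horizontal axes give Rgs5 and the vertical axes Acta2 (left) and Myh11 (right), all as CPM + 10 on log axes, so that a gene without a UMI sits at 10. The 12 and 10 members without Rgs5 sit at the left edge, most of them high for Acta2 and Myh11.

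Contractile genes were lower where Rgs5 was present, which the rule favors, since a member without Rgs5 had to hold 2 of Myh11, Tagln and Notch3, and all 12 and 10 such members held Myh11. The counts below describe the division and are no evidence of it. Acta2 stood at 7975 CPM in the summed untreated members with Rgs5 and at 19236 CPM in those without it, and at 4518 and 14320 CPM in the calcitriol library. Myh11 stood at 2244 and 5849 CPM and at 1885 and 8392 CPM. Both belong to the rule and were not counted. Of the 23 other contractile genes with enough UMIs, 9 were at least 2-fold lower with Rgs5 in both libraries and none was higher, against 3.9% of all 2897 genes compared that were lower in this way and 9.01% that were higher. The 9 were Lmod1, Myl9, Tpm2, Hspb6, Pdlim3, Pln, Myl6, Smtn and Mylk. Pln, or phospholamban, which restrains the calcium pump of the sarcoplasmic reticulum, showed the widest gap, at 71.9 CPM with and 518 CPM without Rgs5 in untreated members and at 2.43 and 461 CPM in calcitriol members.

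Several genes outside the lists followed the contractile genes and were picked after their values were seen. Timp4, a metalloproteinase inhibitor, stood at 34.3 CPM with and 416 CPM without Rgs5 in untreated members, and at 31.6 and 501 CPM in calcitriol members. Sorbs2, an adaptor of actin anchorage, stood at 158 and 1323 CPM and at 48.6 and 1282 CPM. The sarcomeric and intermediate filament proteins Myom1 and Synm and the proteoglycan Ogn were also at least 2-fold lower with Rgs5 in both libraries, as was Itga8, an integrin of the basement membrane list.

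Some genes of other lists were on the other side. Of 15 pericyte genes outside the rule's 4, 7 were at least 2-fold higher with Rgs5 in both libraries and none was 2-fold lower in both. They were Steap4, Vtn, Higd1b, Postn, which has an upper limit in the rule, Pdgfrb, the receptor for PDGF-B, and Kcnj8 and Abcc9, the pore and the regulatory subunit of the ATP-sensitive potassium channel. Cspg4, Gucy1a1 and Rgs4 of the same list were lower with Rgs5 in both libraries, though not by 2-fold in both. Pdgfrb stood at 298 CPM with and 89.5 CPM without Rgs5 in untreated members and at 338 and 100 CPM in calcitriol members. Of 22 genes of the interstitial matrix, 11 were higher and 2 lower (Dcn and Ltbp1). Col3a1 stood at 2353 and 371 CPM and at 2011 and 200.3 CPM. Of 16 inflammatory genes and chemokines 12 were higher and none lower, and of 14 interferon and antigen-presentation genes 10 were higher and none lower. Steap4 is on both the pericyte and the inflammatory list. Of 4 endothelial markers with enough UMIs, Eng and Flt1 were likewise higher with Rgs5 in both libraries. The 8 untreated and 6 calcitriol members with 2 or more endothelial markers all had Rgs5. The interferon list summed to 5563 and 6402 CPM in members and to 10368 and 9458 CPM in endothelial barcodes. The inflammatory list summed to 7073 and 7564 CPM in members and to 4941 and 3487 CPM in endothelial barcodes. The part of endothelial RNA in these counts was not tested. The monocyte chemokine Ccl2 stood at 2480 CPM with and 102 CPM without Rgs5 in untreated members and had 381 UMIs with and 0 without it in calcitriol members, and Cxcl1, which draws neutrophils, stood at 3316 and 352 CPM and at 2342 and 50.1 CPM.

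**Figure D2:**
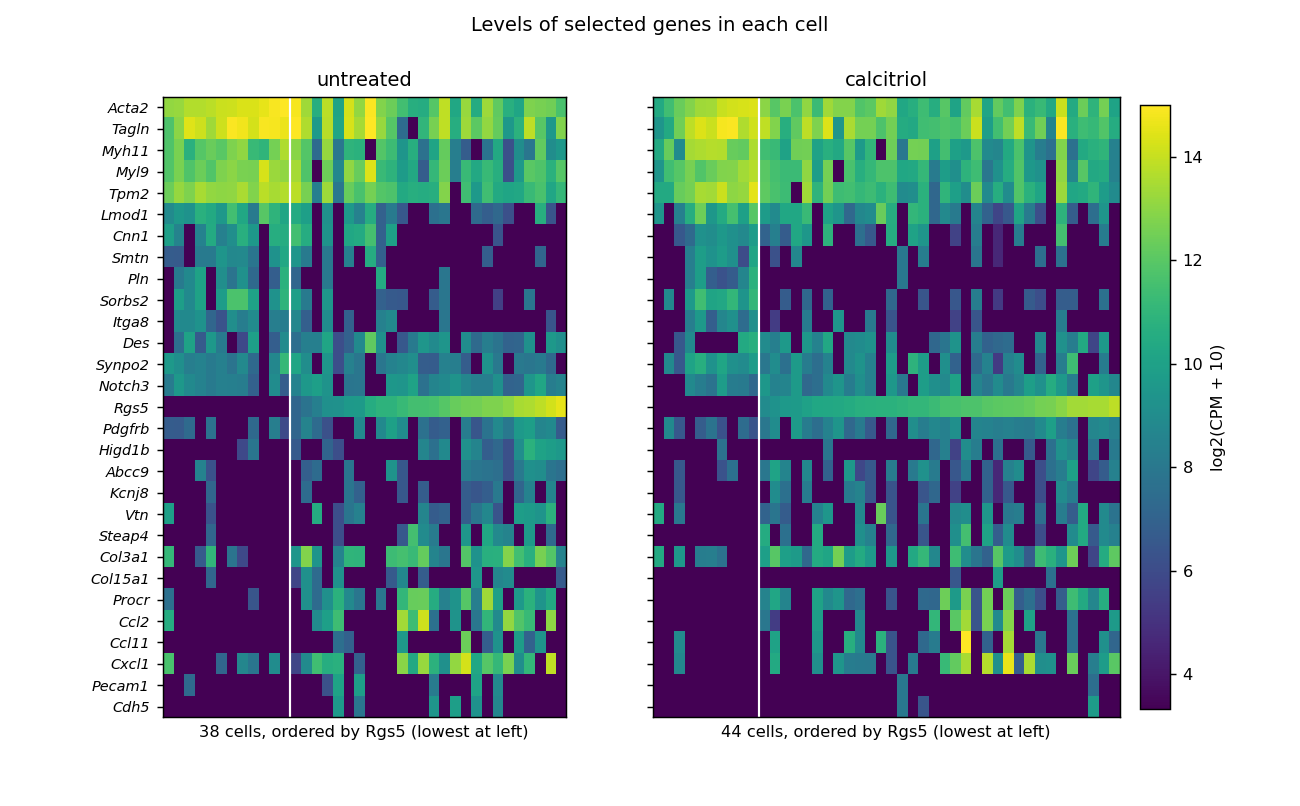
Each column is 1 member, ordered within each library by Rgs5, and each row 1 gene, with color giving log2(CPM + 10). The white line separates the 12 and 10 members without Rgs5, on its left, which hold Smtn, Pln, Sorbs2 and Itga8 more often, from those with it, which hold Kcnj8, Steap4, Procr and Ccl2 more often.

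Not all chemokine-bearing members were alike. Ccl2 had a UMI in 16 of 38 untreated and 14 of 44 calcitriol members (42.1% and 31.8%), against 2.59% and 4.33% of haemoglobin-rich barcodes. Ccl11, the eotaxin, had a UMI in 9 and 16 members, and 1 member held 54 of its 98 UMIs in the untreated library. In the calcitriol library 1 member held 133 of its 350 UMIs and another held about as many. These calcitriol members, at 34801 and 11147 CPM, together carried most of the 350. Single cells thus set much of the sums of these genes.

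The libraries were then compared over the summed members. Of 2897 genes with 50 or more UMIs in members of both libraries together, 82 were at least 2-fold higher (2.83%) and 92 at least 2-fold lower (3.18%) in the calcitriol library, and the median log2 ratio of calcitriol over untreated was 0.02. Each list below is read against these shares. The lists were not tested as sets.

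Of the 28 genes of the contractile list 26 had enough UMIs. None was 2-fold higher and 1 was 2-fold lower, a share near that of all genes. In all, 22 of the 26 lay below 0, against 1392 of all 2897 genes, and their median log2 ratio was −0.35. The gene past 2-fold was Pln, at 228 CPM in untreated and 91.9 CPM in calcitriol members. The list summed to 58941 CPM over untreated and 41036 CPM over calcitriol members (log2 ratio −0.52, interval −0.55 to −0.50). Acta2 went from 11904 to 6432 CPM (−0.89, −0.95 to −0.83), Tagln, an actin-bundling protein, from 12776 to 8371 CPM (−0.61) and Cnn1 from 640 to 326 CPM (−0.97). Myl9 and Myl6, whose promoters are shown above, had 4271 and 2973 CPM (−0.52) and 5576 and 3519 CPM (−0.66). Myh11 differed little, at 3502 and 3155 CPM (−0.15, −0.25 to −0.05), and Lmod1 went the other way, from 600.0 to 802 CPM (0.42, 0.19 to 0.65). Members without Rgs5 made up 31.6% of untreated and 22.7% of calcitriol members, and among members with Rgs5 alone the median of the list was −0.35 as well. Acta2 was lower both among members with Rgs5 and among those without it, by the values given above, whereas Myh11 was lower with Rgs5 and higher without it. In other cells of the same libraries the summed list was lower too, with 3303 and 2176 CPM in endothelial and 2173 and 1462 CPM in fibroblast barcodes. Since Acta2, Tagln and Myh11 chose the members, their part in this difference is a description.

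**Figure D3:**
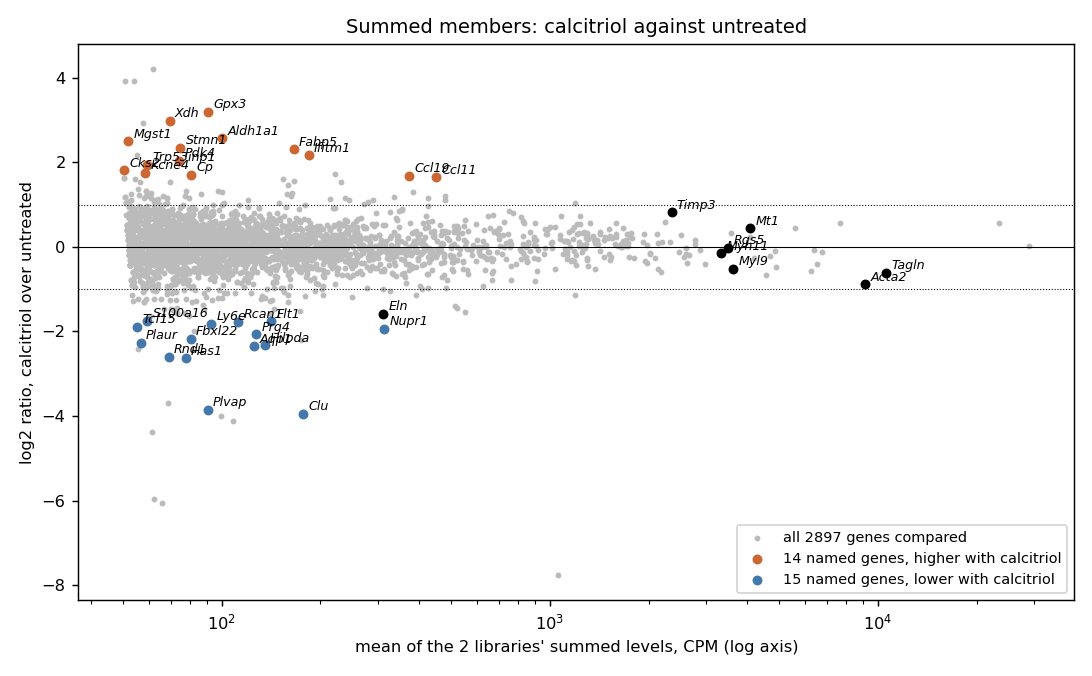
Each point is 1 of 2897 genes, with the mean of its summed CPM in the 2 libraries on the horizontal log axis and the log2 ratio of calcitriol over untreated on the vertical axis. Dotted lines mark 2-fold, colored points are 14 of the 15 highest and the 15 lowest genes of the naming rule, and black points are other named genes. The most abundant contractile genes, Acta2 and Tagln, lie below 0 but within 2-fold.

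Pericyte genes went both ways. Of 17 with enough UMIs none was 2-fold higher and 1 was 2-fold lower, 8 were above and 9 below 0, and the median log2 ratio of −0.02 was that of Rgs5, a gene of the rule, at 3517 and 3466 CPM (−0.12 to 0.08). The gene past 2-fold was Rgs4, a relative of Rgs5, at 248 and 111 CPM (−1.15, −1.64 to −0.68), with −0.47 once members were thinned to 2000 UMIs. Higd1b, a mitochondrial protein and pericyte marker, stood at 192 and 97.7 CPM (−0.97, −1.51 to −0.45) and Ndufa4l2 at 317 and 213 CPM (−0.57, −0.95 to −0.20). Abcc9 came closest on the other side, at 107 and 207 CPM (0.95, 0.45 to 1.48), and its partner Kcnj8 had a ratio of 0.54.

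Of 16 genes of vascular tone, none was 2-fold higher and 3 were lower, Rgs4, Rasl12 and Ednrb, an endothelin receptor, at 210 and 70.4 CPM (−1.57). Of the 94 untreated UMIs of Ednrb, 64 came from 1 member, and without the top cell of each library its ratio was −0.94. Rasl12 (−1.15) had −0.86 as a mean of cells' own CPM. The soluble guanylate cyclase gene Gucy1a1, the target of nitric oxide, had 361 and 340 CPM (−0.09), and Ednra, the endothelin receptor of smooth muscle, had a ratio of 0.48. Of 10 ion channel and calcium handling genes 1 was past 2-fold, Stim1, the calcium sensor of the sarcoplasmic reticulum, at 98.1 and 227 CPM (1.21, 0.70 to 1.74), with UMIs in 23 and 32 members and at most 13 in any of them.

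Of 19 genes of Notch, PDGF and TGF-β signalling 1 was past 2-fold, Tgfb3, at 185 and 78.2 CPM (−1.24), and their median was 0.11. The Notch target Nrarp had a ratio of 0.86 and Notch3 one of 0.39 (386 and 504 CPM). Of 15 basement membrane genes none was past 2-fold. The integrin Itga8, at −0.99, and perlecan, encoded by Hspg2, at −0.93, were lowest, and the laminin chain Lama4, at 0.85, was highest. Col4a1, the collagen of that membrane, stood at 1472 and 1718 CPM, of which 1 calcitriol member held 410 of 879 UMIs.

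Of 22 genes of the interstitial and elastic matrix 2 were 2-fold higher and 3 lower, with a median of 0.25. Eln, encoding elastin, the recoil protein of the artery wall, stood at 466 CPM in untreated and 156 CPM in calcitriol members (−1.58, −1.97 to −1.20), and no member held more than 32 of its 209 or 12 of its 80 UMIs. It was lower with Rgs5 (432 and 163 CPM) and without it (531 and 130 CPM). Eln also stood lower in endothelial (−0.99) and fibroblast (−1.01) barcodes. Ltbp1, which stores TGF-β on elastic fibers, stood at 120 and 39.1 CPM (−1.62). Fbn1, encoding fibrillin-1 of the same fibers, stood at 95.9 and 231 CPM (1.27, 0.75 to 1.81), and 50 of its 118 calcitriol UMIs came from 1 member. Its ratio was 0.23 without members with endothelial markers, 0.68 without the deepest calcitriol member and 0.50 after thinning. Timp3 stood at 1704 and 2997 CPM (0.81). Dcn (−2.19) rested on 1 untreated member with 83 of its 128 UMIs and stood, at 285 and 62.6 CPM, under the 504 and 1236 CPM of haemoglobin-rich barcodes, and Col5a3 (1.14) rested on 1 calcitriol member with 95 of its 151 UMIs, and its ratio was −0.081 without the deepest calcitriol member.

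Genes induced by glucocorticoids included several that were higher. Of 16 with enough UMIs 5 were 2-fold higher and none lower, 13 were above 0, and their median was 0.46. The 5 included Sgk1, a kinase gene, whose ratio of 1.10 was −0.14 without members with 2 or more endothelial markers and stayed past 2-fold in 7 of 13 alternatives. The others were Pdk4, a switch from glucose to fat oxidation, Tsc22d3, the leucine zipper GILZ, Zbtb16 and Txnip. Pdk4 stood at 29.0 and 119 CPM (2.04, 1.16 to 3.03), with UMIs in 6 and 19 members against 0.627% and 3.25% of haemoglobin-rich barcodes. Tsc22d3 stood at 84.8 and 235 CPM (1.47, 0.93 to 2.04), with 0.92 after thinning, and Txnip at 306 and 655 CPM (1.10, 0.81 to 1.40), with 0.97 without members with endothelial markers. The metallothioneins Mt1 (3464 and 4692 CPM) and Mt2 (874 and 1202 CPM) had ratios of 0.44 and 0.46. The 5 genes were above 0 in the endothelial and fibroblast barcodes too, sets whose cartilage markers also differed between the libraries, as given below. Pdk4 had ratios of 2.70 in endothelial and 2.88 in fibroblast barcodes, Zbtb16 of 1.22 and 1.49, Sgk1 of 0.65 and 1.10, Tsc22d3 of 0.96 and 0.83 and Txnip of 0.49 and 1.29. Mt1 had 1.65 and 1.57, and the summed list went from 8370 to 13927 CPM and from 11287 to 24114 CPM there, against 9658 to 12478 CPM in members.

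Chemokine genes went in both directions. Of 16 inflammatory genes 5 were 2-fold higher, 1 was 2-fold lower, and the median was 0.41. Ccl11 stood at 219 and 684 CPM (1.65), Cxcl10 at 183 and 397 CPM (1.12) and Cxcl2 at 75.8 and 164 CPM (1.11). Another was Ccl19 (ENSMUSG00000071005), at 176 and 567 CPM (1.69), whose symbol has more than 1 entry in the annotation, so that its count is uncertain. Ccl2 was the lower one, at 1651 and 745 CPM (−1.15, −1.33 to −0.97), with UMIs in 16 and 14 members. Its ratio was −0.85 without the top doublet scores. Cxcl2 and Cxcl10 rested on 4 and 6 calcitriol members, and their calls were lost in 4 of 13 alternatives each. Ccl11 rested mostly on a pair of calcitriol members. Leaving out the top cell removed only 1 of them, and the direction of its ratio without both was not tested. With Acta2 at 0.2% or more Cxcl2 turned to −4.74, and with Acta2 at 0.05% or more Cxcl10 had 0.059 and Ccl11 0.79. Il6 had 819 and 970 CPM (0.24). Of 14 interferon and antigen-presentation genes 1 was past 2-fold, Ifitm1 (66.9 and 301 CPM, 2.17), with UMIs in 9 and 15 members.

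Dissociation-stress and glycolysis genes gave few differences past 2-fold. Of 29 stress and immediate-early genes 2 were lower, Ier3 (747 and 282 CPM, −1.41) and Hsph1 (141 and 60.6 CPM, −1.21, and −0.57 after thinning), none was higher, and the median was −0.13. Fos stood at 2781 and 2358 CPM (−0.24) and Junb at 2126 and 1906 CPM (−0.16). Of 13 hypoxia and glycolysis genes none was past 2-fold, but 12 were below 0, with a median of −0.35. Of 13 growth and niche factors none was past 2-fold, the abundant Igfbp7 having 7403 and 5636 CPM (−0.39). Only 3 mineralization genes and 1 cholesterol synthesis gene had enough UMIs. Mgp, which guards arteries against calcification, stood at 2627 and 2590 CPM (−0.02), beside 1053 and 2130 CPM in haemoglobin-rich barcodes, and Gas6 at 82.5 and 35.2 CPM (−1.23), with −0.49 when Acta2 of 0.05% was enough.

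**Figure D4:**
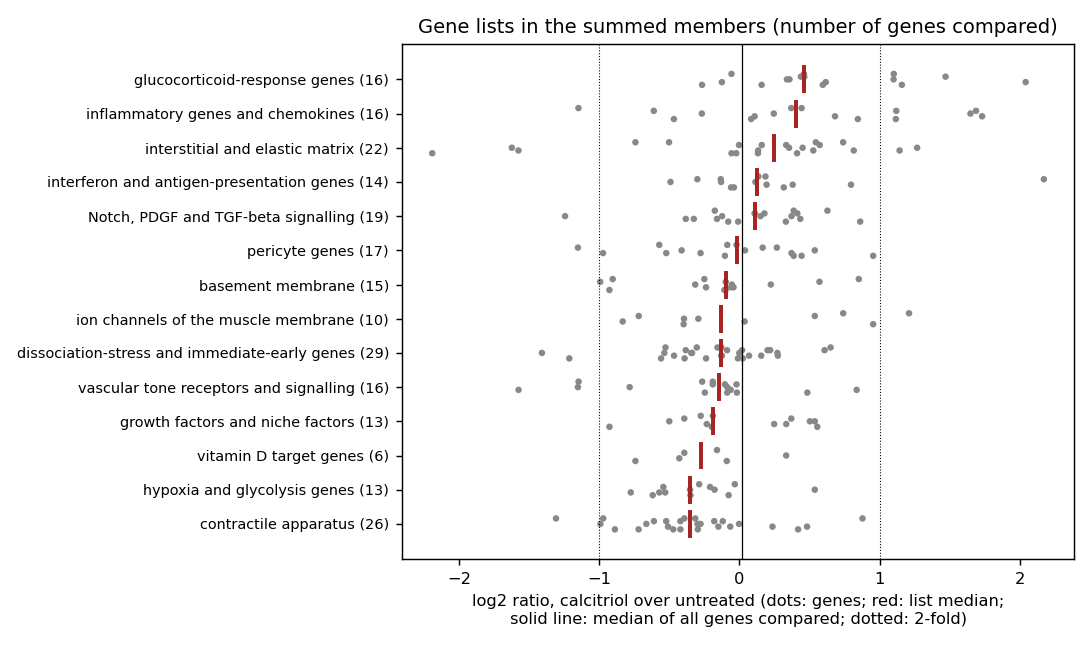
Each dot is 1 gene with 50 or more UMIs, placed by its log2 ratio of calcitriol over untreated in the summed members, and each red bar the median of its list. The solid line is the median of all 2897 genes (0.02) and dotted lines are 2-fold. Among the lists drawn, those with 5 or more genes compared, the glucocorticoid-response and inflammatory lists have the highest medians (0.46 and 0.41) and the contractile and glycolysis lists the lowest (both −0.35).

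The vitamin D receptor was rare in members. Vdr (ENSMUSG00000022479, chr15:97854425-97910630, minus strand) had a UMI in 4 of 38 untreated members (10.5%, 2.94 to 24.8%) and in 2 of 44 calcitriol members (4.55%, 0.555 to 15.5%). The haemoglobin-rich barcodes, at like median depth, gave 0.376% (0.172 to 0.712%) and 0.649% (0.134 to 1.89%). The untreated share lay above that of these barcodes, and the interval of the calcitriol share overlapped theirs. By counts, members of both libraries lay above the 0.406 CPM (0.203 to 0.727) and 1.61 CPM (0.696 to 3.18) of these barcodes. The 4 untreated members held 1, 1, 2 and 6 UMIs of Vdr, and the 2 calcitriol members held 8 each. All 6 had Rgs5, at 30 UMIs or more. Summed over members, Vdr stood at 22.3 CPM (10.7 to 41.0) and 31.3 CPM (17.9 to 50.8), so that no difference was detectable at this depth (log2 ratio 0.49, −0.74 to 1.79). Endothelial barcodes stood at 4.87 and 10.4 CPM and fibroblast barcodes at 4.62 and 4.04 CPM.

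Cyp24a1, which encodes the enzyme that degrades calcitriol and is the usual early target of the receptor, had 0 UMIs in members of both libraries. Such a count allows up to 6.69 CPM in untreated members and up to 5.86 CPM in calcitriol members. In all other barcodes it had 0 UMIs in the untreated and 27 UMIs in 12 barcodes of the calcitriol library. Of 21 vitamin D targets, 6 had enough UMIs and none was past 2-fold. The median was −0.28, over targets of both directions. The paper lists Ccnd2, Pdgfa, Timp1 and Cap1 as known to be enhanced by the hormone and Igfbp7 and Fn1 as known to be suppressed. Fn1 (337 and 424 CPM, 0.33) was above 0, and Igfbp7, Ccnd2 (292 and 217 CPM, −0.43), Pdgfa (428 and 383 CPM, −0.16), Timp1 (239 and 143 CPM, −0.74) and Cap1 (−0.09) were below it. Spp1, the osteopontin gene, with too few UMIs for the comparison, had 6 untreated and 31 calcitriol UMIs, no more than 4 in any member, and lay at 13.4 and 60.6 CPM, far under the 630.3 and 1627 CPM of haemoglobin-rich barcodes.

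A single calcitriol member stood apart by depth and by cell division genes. It held 68760 UMIs, 13.4% of all UMIs of its library's members. It carried 50 of their 52 UMIs of Mki67, 41 of 42 of Top2a, 56 of 64 of Stmn1, 29 of 40 of Cks2 and 112 of 141 of the fatty acid carrier Fabp5. It also held 296 UMIs of Rgs5, 326 of Acta2, 28 of Myh11, 170 of Col1a1 and 8 of the 16 of Vdr. The 2-fold differences of the 2 cell division genes called higher, Mki67 (3.93) and Stmn1 (2.35), of 3 with enough UMIs, therefore come from this barcode, and the third, Pcna, had 141 and 133 CPM. Mki67 lay at 1100 and 486 CPM in haemoglobin-rich barcodes, above its 6.69 and 102 CPM in members. Whether the former was background or those barcodes' own expression was not tested. Its Scrublet doublet score of 0.0648 was the highest of the calcitriol members, whose median was 0.0270. It was not among the top doublet scores of its library. The score cannot decide whether the barcode was 1 cell or several, since the caller marked under 0.5% of barcodes.

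Markers of other cell types differed between the libraries as well. The 10 endothelial markers summed to 830 CPM in untreated and 229 CPM in calcitriol members, Flt1 being the most abundant, and 3 of the 4 with enough UMIs were 2-fold lower. Kdr, the VEGF receptor, had 32 and 0 UMIs. The 10 chondrocyte markers summed to 488 and 135 CPM, mostly Prg4 and Comp, and 1 untreated member held 86 of 92 UMIs of Prg4 and 1 held 73 of 84 of Comp. Erythroid markers summed to 2085 and 356 CPM, led by Hbb-bs, fibroblast markers to 1987 and 2180 CPM, led by Gsn, though 2 of the 4 with enough UMIs were 2-fold lower (Dcn, and Ly6a with 115 and 46 UMIs, −1.51), marrow stroma and adipocyte markers to 480 and 569 CPM, led by Lpl, tendon markers to 82.5 and 23.5 CPM, led by Fmod, osteoblast and osteocyte markers to 384 and 366 CPM, led by Postn, and Schwann cell markers to 328 and 432 CPM, led by Pmp22, with Sox10 at 0. The part of endothelial and cartilage RNA in the genes below was not tested, but each value was taken again without the 14 members that held 2 or more endothelial markers.

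The 15 genes with the highest ratios, taken by a set rule, included Gpx3, Xdh, Aldh1a1, Mgst1, Stmn1, Fabp5, Ifitm1, Pdk4, Trp53inp1, Cks2, Kcne4, Cp, Ccl19 and Ccl11, from 3.20 to 1.65. Xdh, encoding xanthine dehydrogenase, stood at 15.6 and 123 CPM (2.98, 1.85 to 4.35), with UMIs in 6 and 13 members, against 1.99 and 10.9 CPM in haemoglobin-rich barcodes, and had a ratio of 0.85 once members were thinned. Mgst1, a microsomal glutathione transferase, stood at 15.6 and 88.0 CPM (2.49, 1.33 to 3.89), against 3.66 and 11.3 CPM. Aldh1a1, which makes retinoic acid, stood at 29.0 and 172 CPM (2.57, 1.72 to 3.53). Haemoglobin-rich barcodes held 42.8 and 44.2 CPM of it, above its untreated level in members, with a UMI in 28.8% and 30.1% of them. Whether this was background or their own expression was not tested. Kcne4, a subunit of voltage-gated potassium channels, stood at 26.8 and 89.9 CPM (1.75), against 0.443 and 1.61 CPM. Cp, the ferroxidase ceruloplasmin, stood at 37.9 and 123 CPM (1.70) and stayed past 2-fold in 12 of 13 alternatives, its lowest ratio being 0.98. Trp53inp1, a p53-induced gene, stood at 24.5 and 93.8 CPM (1.94). Haemoglobin-rich barcodes held 20.7 and 34.3 CPM of it, near its untreated level, with a UMI in 18.8% and 19.5% of them. Whether that was background or their own expression was not tested.

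Gpx3, the secreted glutathione peroxidase, stood at 17.8 CPM (UMIs in 6 of 38 members) and 164 CPM (21 of 44), with a ratio of 3.20 (2.16 to 4.46). Haemoglobin-rich barcodes held 75 and 179 CPM, more than the members in both libraries, though a UMI was seen in a smaller share of them (4.85% and 12.3%) than of members (15.8% and 47.7%). Gpx3 and Cks2 were the 2 of these 15 genes whose level in calcitriol members did not pass that of haemoglobin-rich barcodes, and 9 of the 15 were at least 5 times above it. A UMI of Cks2 was seen in 41.2% and 21.6% of the haemoglobin-rich barcodes. Whether that was background or their own expression was not tested either.

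The 15 genes with the lowest ratios were Clu, Plvap, Has1, Rnd1, Aqp1, Hilpda, Plaur, Fbxl22, Prg4, Nupr1, Tcf15, Ly6e, Rcan1, Flt1 and S100a16, from −3.95 to −1.74. Several of these calls were lost under an alternative. Nupr1 had −0.15 among members with Rgs5, Plaur −0.74 and S100a16 −0.89 after thinning, Tcf15 −0.88 with Acta2 at 0.05% or more, and Ly6e 0.32 without members with 2 or more endothelial markers. Prg4 turned to 2.38 among members with Rgs5 and to 1.70 without the cell with the most UMIs in each library. Several of the 15 genes are endothelial. Plvap, of the diaphragms of fenestrated endothelium, stood at 170 and 11.7 CPM (−3.85), 46 of its 76 untreated UMIs being in 1 member, and had a ratio of −1.05 without the members with endothelial markers. Flt1, a VEGF receptor, stood at 219 and 64.5 CPM (−1.76) and had a ratio of −0.81 without them. Clu, the chaperone clusterin, stood at 332 and 21.5 CPM (−3.95), 1 member holding 100 of its 149 untreated UMIs. Aqp1, the water channel of endothelium and red cells, and Prg4 did not pass the haemoglobin-rich level even in the untreated library, whereas 12 of the 15 were at least 5 times above it.

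Of the others among the 15, Fbxl22, a muscle F-box protein, stood at 132 and 29.3 CPM (−2.17, −3.09 to −1.33), with UMIs in 18 and 9 members and none above 11, against 0.738 and 1.01 CPM in haemoglobin-rich barcodes. Rnd1, a small GTPase that loosens actin fibers, stood at 118 and 19.5 CPM (−2.60), with UMIs in 11 and 4 members. Rcan1, the calcineurin inhibitor, stood at 174 and 50.8 CPM (−1.78), with UMIs in 18 and 14, but had a ratio of −0.86 without members with endothelial markers. Has1, a hyaluronan synthase, stood at 134 and 21.5 CPM (−2.64), with UMIs in 11 and 4, against 22 and 115 CPM in haemoglobin-rich barcodes, and Hilpda, a lipid droplet protein of hypoxia, at 225 and 45.0 CPM (−2.32), with 44 of 101 untreated UMIs in 1 member.

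**Figure D5:**
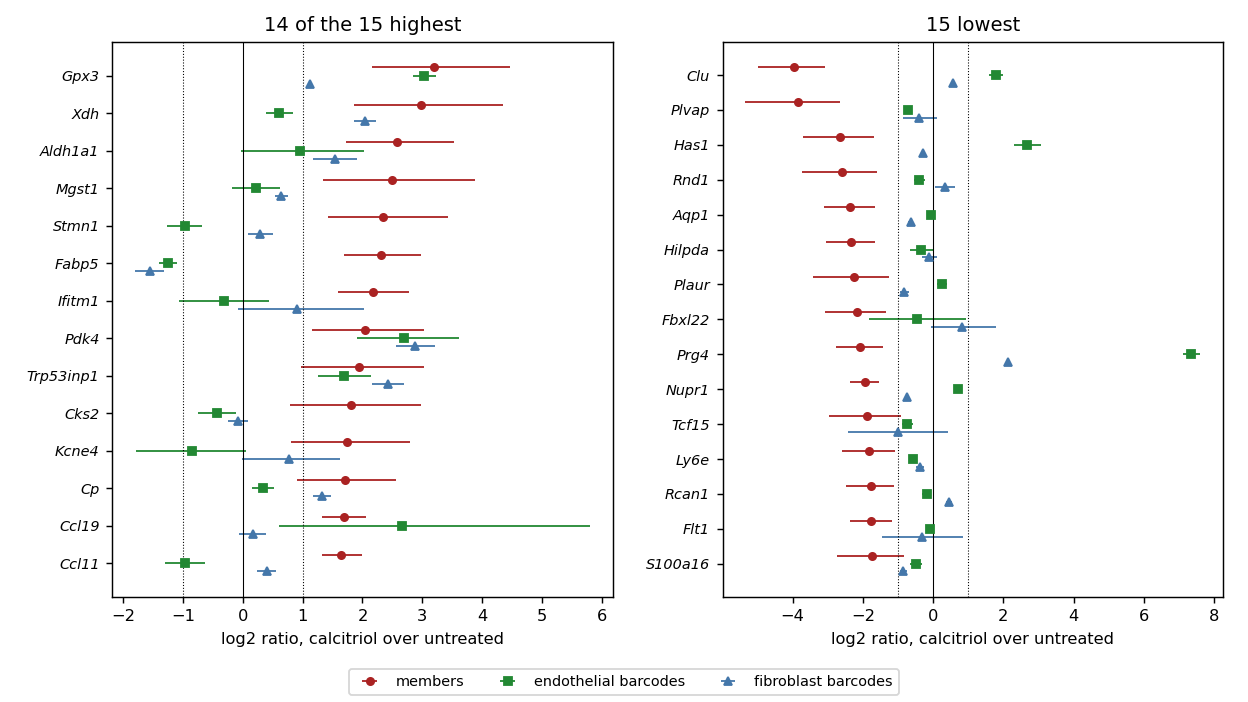
Log2 ratios of calcitriol over untreated with exact 95% counting intervals for 14 of the 15 highest (left) and 15 lowest (right) named genes, in members, endothelial barcodes and fibroblast barcodes of the same libraries. Gpx3, Pdk4 and Trp53inp1 lie on the same side in the 3 sets, whereas Fabp5, Clu, Has1 and Prg4 lie on opposite sides in members and endothelial barcodes.

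Beside the 233 and 301 endothelial and the 502 and 866 fibroblast barcodes, some of the differences were shared. Gpx3 had ratios of 3.03 and 1.12 there, Trp53inp1 of 1.70 and 2.42 and Aldh1a1 of 0.95 and 1.54. Xdh had 0.60 in endothelial and 2.04 in fibroblast barcodes. Fbxl22 (−0.46 and 0.82), Rnd1 (−0.39 and 0.35) and Rcan1 (−0.18 and 0.45) stayed within 2-fold there. As all ratios share the same pair of libraries, they are not independent of each other, and the differences between cell sets were not tested. The marker content of these 2 sets also differed between the libraries. Chondrocyte markers went from 337 to 9600 CPM in endothelial and from 8997 to 30429 CPM in fibroblast barcodes. In endothelial barcodes fibroblast markers went from 1850 to 5198 CPM and endothelial markers from 6895 to 5175 CPM. Their part in the shared differences was not tested.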

How the data were processed

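The authors mapped reads to mm10 with Cell Ranger 4.0.0 and deposited, per library, filtered UMI counts with no further normalization, which were used as deposited. The submitters' processing notes also name Seurat 3.2.2, which was not used here. The files hold 6076 and 4562 barcodes, as many cells as the study states, and 8553 pass its limit of 200 genes. Its cluster-level filters were not applied, since members were chosen by the expression rule without clustering. Members, gene lists and alternatives were chosen with earlier results of these data known.

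UMIs were summed per library over members and scaled to CPM. Exact 95% intervals, which cover counting error only, came from the Poisson distribution for a sum, from the binomial conditional on both sums for a ratio and by Clopper and Pearson for a share. A 0 in 1 library was set to 3 counts, giving a bound. Genes with 50 or more UMIs over both libraries were compared, without mitochondrial and haemoglobin genes, and 2-fold stood in place of a test. Endothelial barcodes had UMIs of 2 or more of 5 markers, fibroblast barcodes UMIs of Ly6a and Pdgfra without this, and haemoglobin-rich barcodes 10% or more haemoglobin. None of these was a member.

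Genes were named by rule. They were the genes of the rule for members, the 20 with the largest ratio of members to other barcodes (pseudocount 10 CPM, 100 or more member UMIs), the 15 highest and 15 lowest ratios among genes found in 20% or more of a library's members, the 4 most abundant of each list and all its genes past 2-fold, and Vdr and Cyp24a1. Some genes that these rules name are not reported here. Genes named beyond these were picked after their values were seen. The symbol Nov of the growth factor list was not matched. Scrublet (scanpy 1.11.5) marked 0% and 0.102% of barcodes, so no doublet was removed. Coordinates are from GENCODE vM21 (GRCm38) and promoters from RefSeq. The counting comparison was tested on simulated counts drawn from a Poisson distribution. These lacked the clumping of UMIs in single members, so the coverage of the intervals in these data was not tested. Python 3.11.15, numpy 2.4.6, scipy 1.17.1, pandas 2.3.3 and matplotlib 3.10.9 were used.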

Additional observations from a re-analysis of the deposited data

Results flagged for a closer look

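For 4 genes the difference between the libraries went one way in members and the other way, also by 2-fold or more, in another set of barcodes. Fabp5 had a log2 ratio of 2.31 in members and of −1.24 in endothelial and −1.56 in fibroblast barcodes. The members' ratio was 0.60 once the cell with the most UMIs in each library was left out. Clu had −3.95 in members and 1.79 in endothelial barcodes, and Has1 had −2.64 and 2.68. Prg4 had −2.07 in members, 7.36 in endothelial and 2.12 in fibroblast barcodes, and its level in haemoglobin-rich barcodes went from 242 to 1673 CPM. Its ratio in members was 1.70 without the cell with the most UMIs in each library, 2.38 among members with Rgs5 and 0.044 as a mean of cells' own CPM, the same side as in the other sets. The marker content of the other sets also differed between the libraries. The 10 chondrocyte markers, Prg4 among them, summed to 337 and 9600 CPM in endothelial and to 8997 and 30429 CPM in fibroblast barcodes. The 10 endothelial markers summed to 6895 and 5175 CPM in endothelial barcodes. The part of RNA from other cell types in these ratios was not tested. The difference between the cell sets was not tested either, since each group was 1 library.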

How the results depend on the processing

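Of the 30 ranked genes, 26 kept their sign and 16 stayed past 2-fold (9 higher, 7 lower) under all 13 alternatives. Medians of the contractile list ran from −0.39 to −0.11, of the glucocorticoid list from 0.32 to 0.79 and of the inflammatory list from 0.21 to 0.57. Several other medians took both signs, among them that of the interstitial and elastic matrix from −0.45 to 0.51, of Notch, PDGF and TGF-β signalling from −0.15 to 0.19, of interferon genes from −0.19 to 0.76, of pericyte genes from −0.25 to 0.24 and of vitamin D targets from −0.46 to 0.17. Counts past 2-fold were 357 higher and 291 lower of 5680 genes with 20 or more UMIs, 28 and 34 of 1467 with 100 or more, and 12 and 15 of 428 after thinning members to 2000 UMIs, where 6 of the genes called before remained in each direction. With the mean of cells' own CPM 158 were lower. The other alternatives gave 62 to 119 higher and 78 to 131 lower. Of the 82 higher and 92 lower genes, 29 and 43 were called again without members with 2 or more endothelial markers. Among members with Rgs5, 49 and 49 were called again. Fewer genes were compared in these alternatives (2152 and 2187).

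Some genes turned to the other sign, and the cause was not tested unless the alternative's own construction shows it. Without members with 2 or more endothelial markers, which also drops the deepest calcitriol member, ratios were −0.63 for Stmn1, −0.046 for Cks2, 0.32 for Ly6e, −0.20 for Col5a3, −0.14 for Sgk1, −1.63 for Mki67 and 1.54 for Pecam1. Without that deepest member they were −0.44 for Stmn1, −0.081 for Col5a3, −0.57 for Mki67 and −0.18 for the median of cell division genes. Without the cell with the most UMIs in each library they were −0.18 for Stmn1, 1.70 for Prg4 and −0.063 for that median. Thinning gave −0.15 for Stmn1 and −0.42 for Col5a3. The mean of cells' own CPM gave 0.044 for Prg4 and 0.0061 for Dcn. Prg4 had 2.38 among members with Rgs5 and 1.76 without the top doublet scores, Dcn had 0.28 with Acta2 at 0.05% or more, and Cxcl2 had −4.74 with Acta2 at 0.2% or more. Leaving out single cells or the deepest member, the top doublet scores and the comparison at 0.05% were chosen after seeing the data, and the planned removal of called doublets was not run because the caller marked too few. No paired analysis was possible because each group was 1 library.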

Other observations

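The widest ratios of all lay outside the rule for named genes, because few members held the gene, and are given as values picked after they were seen. Msmp had 947 UMIs in 1 untreated member and 5 UMIs over 4 calcitriol members, and the leukocyte adhesion genes Sele and Selp had 58 and 55 UMIs in 4 and 3 untreated members against 1 and 0. H2-M9 had 63 UMIs in 3 calcitriol members and none in untreated members, and the histone gene Hist1h1b had 52 UMIs, all in 1 calcitriol member.

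Actg2, the other smooth muscle actin, was split differently by Rgs5 in the 2 libraries. In untreated members it stood at 346 CPM with Rgs5 and 454 CPM without it, and in calcitriol members at 544 and 70.1 CPM. The deepest calcitriol member, which has Rgs5, held 74 of its 231 UMIs. No test was possible with 1 library per group.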
